A study of Mus musculus with 16 samples.

Results

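The strong ChIP-Seq peaks of the transcription factor Miz1 were examined in 2 mouse lymphoid cell lines. They were selected on the height of the ChIP-Seq signal: a peak counted as strong when its pileup, the number of overlapping sequenced fragments at the summit, was 25 or more in either of the deposited Miz1 peak lists, with chromosome 15 left out. The rule gave 208 strong peaks of 21629 in the list labelled P6D4 and 440 of 10462 in the list labelled 70Z/3, together 648 of 32091. Merged across both lists they covered 518 loci. P6D4 is labelled as an SCID.adh murine thymic lymphoma line of stage DN3, an early step of T cell development, and 70Z/3 as a lymphoblast line of stage Pre-B. Apart from SCID in the line name of P6D4, the labels name no treatment or genetic change in either line. Each is 1 established line standing for its cell type. Miz1 was precipitated with a rabbit antibody from formaldehyde-fixed cells. Each line gave 3 RNA-Seq libraries and 1 Miz1 ChIP-Seq library, so values of peaks have no replicate check. Whether the RNA libraries of a line came from separate cultures is not given, so the p-values rest on a spread between libraries that may be technical.

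Miz1 is the product of Zbtb17, a POZ domain protein with zinc fingers that binds near transcription start sites. It can activate genes by itself and can repress them when it is joined by partners such as Myc or Bcl6. In lymphoid cells it is known for a role in early B and T cell development, and in other cells it binds promoters of genes for vesicle transport and autophagy.

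The sequences around the summits are shown because 1 short word recurs in them. The promoter regions come from the RefSeq promoter table of build GRCm38.p6, which gives 250 bases before to 50 bases after each transcription start. Up to 60 bases on either side of the summit, that of the 70Z/3-labelled list except for Rasal2, are printed 5′ to 3′ on the strand of the gene, cut where the promoter region ends. The summit is base 61 of each sequence except that of Vamp4, where it is base 10. Capitals mark the word TCGA and, where it is preceded by A or followed by T, the longer word ATCGA or its reverse complement TCGAT. The first set holds the 10 genes with the highest signal in both lists among summits inside a promoter of the table. Their positions are Vamp4 chr1:162570578-162570647 (plus strand), Cox19 chr5:139345170-139345290 (minus strand), C2cd5 chr6:143100133-143100253 (minus strand), Exoc2 chr13:30974015-30974135 (minus strand), Taok3 chr5:117119982-117120102 (plus strand), Palb2 chr7:122132929-122133049 (minus strand), Gne chr4:44072668-44072763 (minus strand), Rbsn chr6:92214836-92214956 (minus strand), Pomt1 chr2:32236569-32236689 (plus strand), Hdgf chr3:87906150-87906270 (plus strand).
Vamp4: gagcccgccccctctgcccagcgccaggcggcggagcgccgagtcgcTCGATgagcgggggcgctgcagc
Cox19: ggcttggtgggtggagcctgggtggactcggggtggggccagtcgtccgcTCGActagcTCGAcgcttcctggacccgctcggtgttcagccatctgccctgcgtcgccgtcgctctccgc
C2cd5: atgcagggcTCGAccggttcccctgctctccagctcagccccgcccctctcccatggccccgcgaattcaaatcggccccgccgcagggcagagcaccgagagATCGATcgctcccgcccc
Exoc2: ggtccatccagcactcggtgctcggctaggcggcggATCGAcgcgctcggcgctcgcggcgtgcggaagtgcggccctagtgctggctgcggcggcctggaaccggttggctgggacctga
Taok3: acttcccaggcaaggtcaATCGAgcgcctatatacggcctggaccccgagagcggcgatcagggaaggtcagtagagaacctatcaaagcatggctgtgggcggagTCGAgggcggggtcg
Palb2: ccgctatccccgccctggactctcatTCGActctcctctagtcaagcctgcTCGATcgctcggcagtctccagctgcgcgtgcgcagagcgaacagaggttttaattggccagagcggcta
Gne: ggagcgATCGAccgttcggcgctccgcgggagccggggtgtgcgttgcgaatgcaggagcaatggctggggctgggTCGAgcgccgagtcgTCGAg
Rbsn: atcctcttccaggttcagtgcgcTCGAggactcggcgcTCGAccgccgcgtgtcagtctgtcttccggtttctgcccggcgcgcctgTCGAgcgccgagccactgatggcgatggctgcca
Pomt1: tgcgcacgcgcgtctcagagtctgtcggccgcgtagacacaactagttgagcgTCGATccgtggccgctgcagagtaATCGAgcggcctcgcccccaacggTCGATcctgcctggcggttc
Hdgf: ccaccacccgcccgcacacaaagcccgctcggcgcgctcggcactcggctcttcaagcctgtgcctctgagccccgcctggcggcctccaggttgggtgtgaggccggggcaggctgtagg
Of these 10 sequences, 7 held ATCGA or TCGAT and 9 held TCGA. Both words were chosen after the sequences were seen, so these counts are no test. Of all promoters outside chromosome 15, in windows of 300 bases, 7.31% held ATCGA or TCGAT and 21.9% held TCGA. The printed sequences are shorter than those windows. The next pair stands at the tabulated promoters with the highest strong peak that had no counterpart in the other list, Rasal2 for the P6D4-labelled list and Snx18 for the 70Z/3-labelled list, at Rasal2 chr1:157412598-157412718 (minus strand) and Snx18 chr13:113618570-113618690 (minus strand).
Rasal2: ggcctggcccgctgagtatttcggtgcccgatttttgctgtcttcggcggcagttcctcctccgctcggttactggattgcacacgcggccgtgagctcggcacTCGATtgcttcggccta
Snx18: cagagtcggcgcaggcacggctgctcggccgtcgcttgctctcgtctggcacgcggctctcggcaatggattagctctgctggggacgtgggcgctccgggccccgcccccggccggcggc

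The libraries were first set against their labels. P6D4 and 70Z/3 RNA libraries held 48.3 to 54.8 and 45.5 to 48.9 M counts in genes. All 10 markers of DN3 thymocytes reached 1 CPM (counts scaled to the library total) in P6D4 and 5 of 10 in 70Z/3, with summed levels of 4120 to 4190 CPM in P6D4 and 179 to 186 CPM in 70Z/3. Of 9 Pre-B markers, 1 reached 1 CPM in P6D4 (Rag1, which both stages use) and 8 in 70Z/3 (all but Rag1), with sums of 479 to 523 CPM in P6D4 and 1870 to 1920 CPM in 70Z/3. The defining DN3 markers Cd3e, Cd3g, Thy1, Ptcra and Bcl11b were under 1 CPM in 70Z/3, and the defining B cell markers Pax5, Cd79a and Cd79b were under 1 CPM in P6D4. Myeloid markers summed to at most 37.6 CPM in P6D4 and 24.9 CPM in 70Z/3, and erythroid markers to at most 5.90 and 0.953 CPM. The RNA libraries matched their labels by these markers.

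No such marker exists for the Miz1 lists. Their peaks were set beside the RNA of the lines in 2 measurements, neither of which is a test of the labels. Among weaker peaks that overlapped none of the other list, chromosome 15 held 3.03% of those in the P6D4-labelled list and 10.8% of those in the 70Z/3-labelled list, and chromosome 10 held 4.42% and 7.56%. Genes on these chromosomes had more RNA in P6D4, not in 70Z/3, with a median log2 fold change of P6D4 over 70Z/3 of 0.89 over 355 genes on chromosome 15 and 0.46 over 449 genes on chromosome 10. The X chromosome held 8.23% of such peaks in the P6D4-labelled list and 4.47% in the 70Z/3-labelled list. Genes on the X chromosome had a median log2 fold change of -0.03 over 268 genes. Xist, the RNA of the inactive X chromosome, was at 1.42 to 2.00 CPM in P6D4 and at 4060 to 4560 CPM in 70Z/3. Over 20 chromosomes the log2 ratio of the peak shares and the median RNA fold change had a Pearson r of -0.70 and a Spearman rho of -0.41, and r was -0.05 over the 18 chromosomes other than 10 and 15. The chromosomes are not independent samples, and the value describes these libraries. The second measurement is the RNA of genes with a gene-end peak in one list alone, given below. What these measurements come from was not tested. The lists are named by their labels throughout, and any direction drawn between a list and the RNA of a line rests on those labels.

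Strong peaks lay at gene ends more often than weaker ones did. A summit lay within 1 kb of an end of a protein-coding gene for 69 of 208 strong peaks in the P6D4-labelled list (33.2%, 95% Clopper-Pearson interval 26.8 to 40%) and for 119 of 440 in the 70Z/3-labelled list (27%, 22.9 to 31.5%). Among weaker peaks the share was 0.810% and 4.24%. These intervals cover counting error only. The gene-end peaks sat close to the gene end itself, with a median distance of 63 bp in the P6D4-labelled list and 73 bp in the 70Z/3-labelled list, and 71.0% and 61.3% lay within 100 bp. Weaker gene-end peaks lay within 100 bp in 20.2% and 18.9% of cases. Where the strand of the gene was known, the nearest end was the 5′ end for 49 strong peaks of the P6D4-labelled list and for 89 of the 70Z/3-labelled list, and the 3′ end for 2 and 3. Strand was not known for 18 and 27. Summits scattered on both sides of the 5′ end, with a median position of -22 bp (upstream) and -2 bp. Weaker summits had a median position of 32 bp in the P6D4-labelled list and 224 bp in the 70Z/3-labelled list, both downstream, and 58.2% and 71.7% of them lay downstream.

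**Figure D1:**
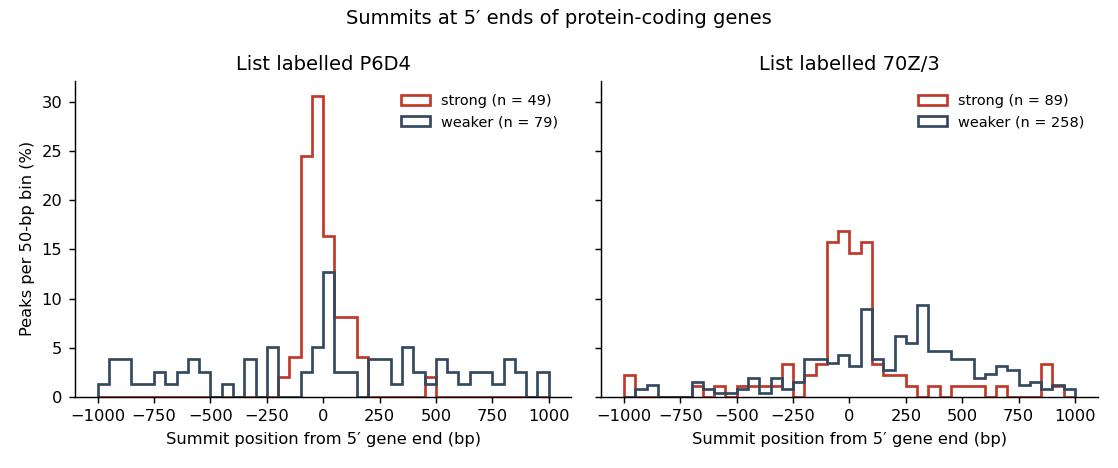
Position of Miz1 summits relative to the nearest 5′ gene end (bp, negative is upstream) as a share of peaks per 50-bp bin, for strong and weaker peaks of each list. Strong summits gather around the 5′ end, with medians of -22 bp in the P6D4-labelled list and -2 bp in the 70Z/3-labelled list, while weaker ones are spread more widely, with medians of 32 bp and 224 bp downstream.

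Gene ends as annotated miss some start sites. Of 394 strong loci farther than 1 kb from a gene end, 17 had a RefSeq transcription start within 1 kb. The peak at Rpl22, a ribosomal protein gene, had a pileup of 54 in the P6D4-labelled list and 160 in the 70Z/3-labelled list and lay 1358 and 1355 bp from the annotated gene end, but 68 and 65 bp from a start. Gne, the first enzyme of sialic acid synthesis, had pileups of 91 and 407 at a RefSeq start inside the gene, 11474 bp from the gene end in the 70Z/3-labelled list.

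Most of the highest peaks were not at gene ends. In the P6D4-labelled list each of the 10 highest peaks lay farther than 1 kb from a gene end, and in the 70Z/3-labelled list each of the 10 highest except that at Vamp4 did. The highest in the P6D4-labelled list, with a pileup of 501, was on chromosome 2 with its summit at 98667075, 1035403 bp from the nearest protein-coding gene, Lrrc4c, and reached 14.2-fold over local background. The longest, 26820 bp, was on chromosome 9 (start 3011469), with a pileup of 429 and a fold of 11.3. The 70Z/3-labelled list had peaks at the same places, with a pileup of 512 and a fold of 21.1 near Lrrc4c, and a single peak of 38615 bp on chromosome 9 (start 2999824) with a pileup of 528 and a fold of 20.9. A local background of 3 tags or more was found at 1.45% of gene-end strong peaks and 28.8% of farther ones in the P6D4-labelled list, and at 4.2% and 30.8% in the 70Z/3-labelled list. The depositors had marked 2 strong peaks of the P6D4-labelled list and 11 of the 70Z/3-labelled list with remarks, most of which concern an equal or high input.

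The share at gene ends was larger among peaks with a high fold over background. Among strong peaks with a fold of 20 or more, 58 of 100 in the P6D4-labelled list (58.0%) and 95 of 192 in the 70Z/3-labelled list (49.5%) lay at gene ends. Among those with a lower fold, 11 of 108 and 9.68% did. The median fold at gene ends was 30.8 in the P6D4-labelled list and 69.8 in the 70Z/3-labelled list, and farther away it was 15.3 and 15.8. Pileup and fold come from the same signal that chose the peaks, so these values describe the set. Median lengths were 524 bp at gene ends and 509 bp farther away in the P6D4-labelled list, and 648 and 552 bp in the 70Z/3-labelled list. Just inside the threshold, at a pileup of 25, stood 23 and 48 peaks with 1 and 6 at gene ends, and just outside it, at 24, stood 29 and 50 peaks with 0 and 3 at gene ends.

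**Figure D2:**
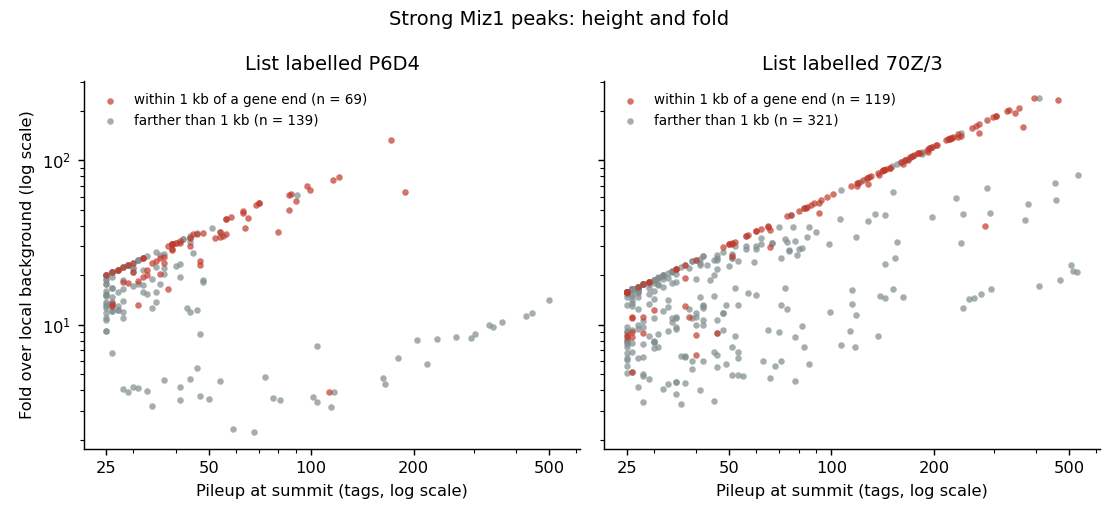
Fold over local background against pileup at the summit (tags), both on log scales, for each strong peak of the P6D4-labelled and the 70Z/3-labelled list. Most peaks at gene ends lie along the upper edge, with median folds of 30.8 and 69.8, and the highest pileups, 501 and 530, belong to peaks farther than 1 kb from a gene end.

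Farther peaks also came in clusters. On chromosome 8, 26 of the 42 farther strong peaks of the 70Z/3-labelled list lay between 19772203 and 20685455, with folds of 5.03 to 13.1, and 9 of them overlapped a peak of the P6D4-labelled list. Another 7 lay between 55116037 and 55370652. In the P6D4-labelled list chromosome 6 held 17 farther strong peaks, 6 of them between 47739166 and 47778224 with folds of 14.8 to 27. A second farther strong peak stood within 10 kb for 14.4% of farther peaks in the P6D4-labelled list and 21.2% in the 70Z/3-labelled list. A farther peak was inside a protein-coding gene in 25.9% and 32.4% of cases.

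Most gene-end peaks were found in both lists. Of 69 gene-end strong peaks in the P6D4-labelled list, 66 overlapped a peak of the other list (95.7%), and of 119 in the 70Z/3-labelled list, 92 did (77.3%). Farther strong peaks overlapped in 72.7% and 43.6% of cases, and weaker peaks in 21.9% and 46.2%. Merged, 124 gene-end loci had a strong peak: 65 were strong in both lists, 1 was strong in the P6D4-labelled list and weaker in the other, 3 were strong in the P6D4-labelled list with no other peak, 28 were strong in the 70Z/3-labelled list and weaker in the other, and 27 were strong in the 70Z/3-labelled list with no other peak. At 64 of the 65 shared loci the pileup was higher in the 70Z/3-labelled list, by a median of 3.23-fold. The lists differ in depth in the same direction: 2.07 M tags were left after removal of duplicates in the P6D4-labelled library and 4.48 M in the 70Z/3-labelled one, so that a pileup of 25 is 12.1 and 5.58 per M tags. With 1 library per line, depth and line cannot be told apart.

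The 10 highest shared gene-end loci, picked after the values were seen because the rule for both kinds of peak names mostly the farther ones, carry genes of varied roles, of which 9 are described, Palb2 among the gene pairs. Vamp4, a SNARE of the trans-Golgi network, had a pileup of 189 in the P6D4-labelled list and 463 in the 70Z/3-labelled list. Cox19, needed to assemble cytochrome c oxidase, had 172 and 365. C2cd5, which takes part in insulin-driven vesicle traffic, had 121 and 347, and Exoc2, a subunit of the exocyst that tethers vesicles to the plasma membrane, had 116 and 332. Wls, which carries Wnt proteins to the cell surface, had 113 and 282, but its summit in the 70Z/3-labelled list lay 822 bp from the 3′ end of the gene, and its fold in the P6D4-labelled list, 3.87, was the lowest of the gene-end strong peaks there. The kinase gene Taok3 had 99 and 355. Rbsn, an effector of Rab GTPases on early endosomes, had 90 and 220. Pomt1, an enzyme of protein O-mannosylation, had 87 and 223. Of these, Vamp4, C2cd5, Exoc2 and Rbsn act in membrane traffic.

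**Figure D3:**
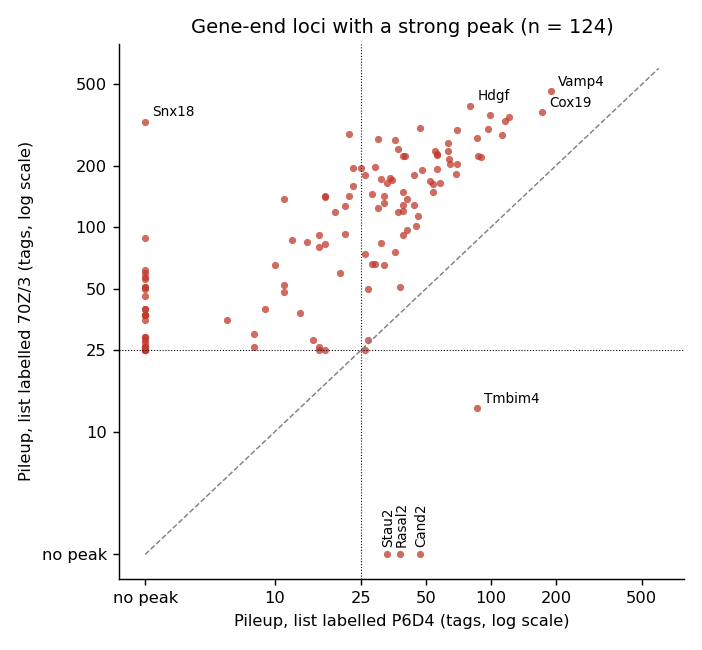
Pileup (tags, log scale) at each of 124 gene-end loci in the P6D4-labelled list (horizontal) and the 70Z/3-labelled list (vertical), with loci lacking a peak at the margin, dotted lines at the threshold of 25 and a dashed line of equal pileup. At 64 of the 65 loci strong in both lists the pileup is higher in the 70Z/3-labelled list, and 4 loci are strong in the P6D4-labelled list alone, Tmbim4, Cand2, Rasal2 and Stau2.

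Some of the peaks lay at a pair of genes that point away from each other and share a promoter region. Such divergent pairs, with both starts within 1 kb of each other and of the summit, were found at 8 of 69 gene-end strong peaks in the P6D4-labelled list (11.6%, interval 5.14 to 21.6%) and at 9 of 119 in the 70Z/3-labelled list (7.56%, 3.52 to 13.9%). Weaker gene-end peaks had one in 1.79% and 3.83% of cases. Of 17492 protein-coding genes of known strand, 6.62% belong to such a pair. That share counts genes, not peaks, and only genes of known strand. The shares of strong peaks keep those whose nearest end had no known strand, 18 of 69 and 27 of 119. The 2 kinds of share are therefore not on the same basis, and no excess or lack is read from them. The highest of these peaks, with pileups of 97 in the P6D4-labelled list and 304 in the 70Z/3-labelled list, stood in the 61 bp between Palb2, a partner of Brca2 in homologous recombination, and Dctn5, a dynactin subunit. Mettl25 and Ccdc59, 99 bp apart, had 30 and 271. S100pbp and Yars, the tyrosyl-tRNA synthetase gene, 69 bp apart, had 64 and 217. The summits there lay 113 and 63 bp downstream of the 5′ end of Yars, not in the gap. Ptcd1 and Cpsf4, whose products act in mitochondrial RNA metabolism and mRNA 3′ end formation, had 52 and 168 in 109 bp. Ndufa5, of respiratory complex I, and Asb15 had 45 and 101, with summits 69 and 78 bp downstream of the 5′ end of Ndufa5. Dclre1b and Ap4b1 had 41 and 97, Rpl9 and Lias 39 and 92, and Idh1 and Pikfyve 28 and 66. Taf5l and Urb2 had a strong peak in the 70Z/3-labelled list alone, of 40, and a pileup of 9 in the other.

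The promoter sequences were searched for 11 words of known factors on either strand. A strong summit fell into a promoter of the table in 51 cases in the P6D4-labelled list and 72 in the 70Z/3-labelled list. ATCGAT occurred in 14 of 51 (27.5%) and 15 of 72 (20.8%), against 4 of 29 (13.8%) and 0 of 104 (which allows up to 3.48%) promoters with a weaker summit and 0.932% of all 31882 promoters outside chromosome 15. Its relative ATCGGT, the core of the longer Miz1 word ATCGGTAAT, occurred in 9.80% and 9.72%, against 10.3% (3 of 29) and 1.92% of promoters with a weaker summit and 2.33% of all promoters, and ATCGGTAAT itself in 0 of 51 and 0 of 72 (which allows up to 6.98% and 4.99%), and 0.0220% of all. The YY1 word AAGATGGCG was found in 9.80% and 6.94%, against 3.45% and 0.962% at weaker summits and 1.40% of all. CACGTG, which Myc binds, was found in 13.7% and 11.1%, against 6.90% and 9.62% at weaker summits and 7.15% of all. CCAAT was found in 35.3% and 33.3%, against 41.4% and 27.9% at weaker summits and 37.4% of all. The GC box GGGCGG was found in 62.7% and 69.4%, against 41.4% and 65.4% at weaker summits and 35.6% of all. The ETS word ACTTCCGG was found in 7.84% and 11.1%, against 10.3% and 11.5% at weaker summits and 3.87% of all. GCGCATGCG (NRF1), TGACGTCA (CRE) and AGGGGGCGC (part of the CTCF motif) were in at most 2.78% of strong windows and 6.73% of weaker windows of either list. A match is a description of letters, not of a bound site. Some promoters with a weaker P6D4-labelled summit had a strong 70Z/3-labelled peak, as given below for the word ATCGA.

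After the sequences were seen, all 512 words of 5 bases were counted with both strands pooled. ATCGA stood first, being present in 64.1% of 78 distinct promoters with a strong summit, 7.69% of 117 with only a weaker one and 7.31% of all promoters. It ranked first by the difference from all promoters, by the ratio (8.77) and by the difference from weaker promoters. The words next by ratio, GTCGA (52.6% against 8.74%) and CGATC (44.9% against 10.9%), overlap it. Words rich in CpG were also more frequent than in all promoters, such as CGAGC at 82.1% against 29.7%, but were at 53.8% in promoters with a weaker summit. Per list, ATCGA was in 38 of 51 strong windows (74.5%) of the P6D4-labelled list and in 45 of 72 (62.5%) of the 70Z/3-labelled list, and in 37.9% and 4.81% of weaker windows. Of the genes at weaker P6D4-labelled windows with the word, Prdm4, Tug1, Fbxw5, Ino80, Gm15706, Fan1, Gins3 and Wdr13 had a strong 70Z/3-labelled peak. Fkbpl, Brd3os and Gm51594 did not. The share at weaker P6D4-labelled windows is therefore not a share of sites weak in both lists. The word lay close to the summit: its density was 9.15 per kb within 50 bp of strong summits and 2.12 per kb farther off in the P6D4-labelled list, and 7.14 and 1.88 per kb in the 70Z/3-labelled list. Within 50 bp of weaker summits it was 4.34 per kb in the P6D4-labelled list and 0.103 per kb in the 70Z/3-labelled list, against 0.291 per kb over all promoters. The weaker P6D4-labelled matches at that distance lay at Prdm4, Fbxw5, Gm15706, Gins3 and Wdr13, strong in the 70Z/3-labelled list. The rest lay at Brd3os and Gm51594, which were not. An ATCGAT holds the word on both strands and counts as 2 matches in all these densities. Since ATCGAT was more frequent at strong summits than over all promoters, the densities are of matches, not of sites.

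**Figure D4:**
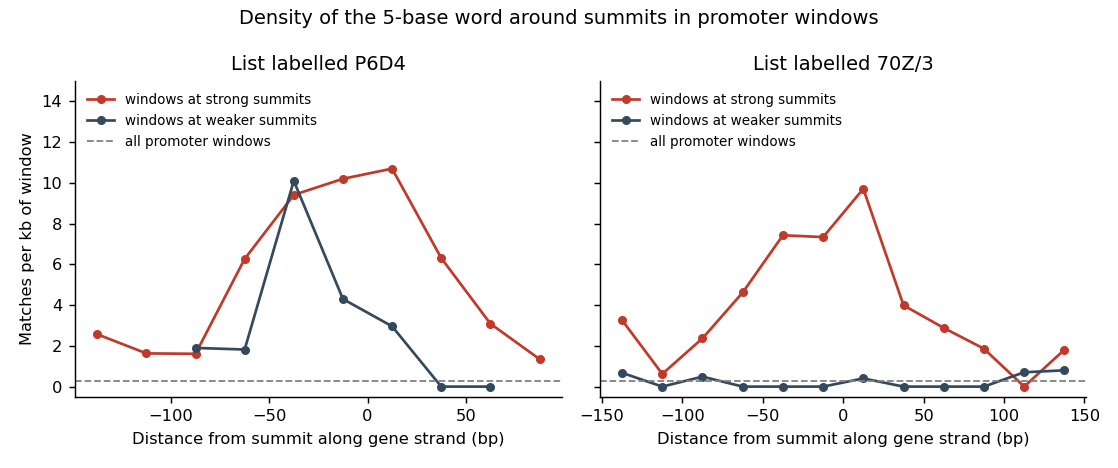
Matches to the 5-base word ranked first (either strand) per kb of promoter window, in 25-bp bins of distance from the summit along the gene strand, in windows at strong and weaker summits of each list, with the density over all promoter windows as a dashed line; bins with under 500 bases are left out. Within 50 bp the density is 9.15 and 7.14 per kb at strong summits of the P6D4-labelled and the 70Z/3-labelled list. At weaker summits of these lists it is 4.34 and 0.103 per kb. An ATCGAT counts as 2 matches. In 1 bin at weaker P6D4-labelled summits the density, 10.1 per kb from 6 matches, is as high as in bins at strong ones. Of the genes in that bin, Gm15706, Wdr13 and Gins3 had a strong 70Z/3-labelled peak and Gm51594 did not.

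Genes at strong gene-end peaks had a median RNA level of 55 CPM in each line. The 124 gene-end loci belong to 120 nearest protein-coding genes, of which 105 could be tested; 7 had too few counts and 8 had no match in the count files. The tested genes had a median above that of all protein-coding genes tested, which was 35.2 and 35.6 CPM. Of the 105, 49 were higher in P6D4 and 41 lower by edgeR (adjusted p under 0.05), a share of 85.7%, close to the 86.5% called among all 13750 genes tested (43.3% higher, 43.2% lower). Small differences pass this test, so a difference over 2-fold was also tested. Among the 63 tested genes with a peak strong in both lists, 1 was higher and 3 were lower by more than 2-fold, a share of 6.35%, against 16.6% higher and 18.6% lower over all genes. The share is also lower among all well-expressed genes: with 10 CPM or more in each line, 6.56% of 61 shared-peak genes and 12.5% of 7820 genes passed. The passing genes were Cpped1, a phosphatase gene, at 29.1, 28.5 and 27.2 CPM in P6D4 and 12.1, 12.2 and 13.1 CPM in 70Z/3, and in the other direction they included Hdgf and C2cd5. Hdgf, a chromatin-binding growth factor gene, was at 276, 273 and 281 CPM in P6D4 and 588, 627 and 621 CPM in 70Z/3, which is -1.14 ± 0.03 as log2 fold change (SE; adjusted p = 1.01e-12 by edgeR). C2cd5 was at 89.4, 82.2 and 79.5 CPM in P6D4 and 190, 179 and 179 CPM in 70Z/3. In Cpped1, Hdgf and C2cd5 the libraries of the lines did not overlap, which the rule for naming genes by RNA required. The same held for 90 of the 105 tested genes.

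Among the genes with the highest shared gene-end pileups, C2cd5, above, passed the 2-fold test, and Vamp4, Cox19 and Exoc2 did not. Vamp4 was at 57.9, 59.0 and 56.3 CPM in P6D4 and 83.2, 73.8 and 75.1 CPM in 70Z/3 (log2 fold change -0.42 ± 0.05 SE, edgeR adjusted p = 1.53e-06). Cox19 was at 23.6, 25.4 and 24.8 CPM in P6D4 and 30.8, 35.0 and 34.9 CPM in 70Z/3. In both genes every P6D4 library was below every 70Z/3 library. Exoc2 was at 98.2, 98.7 and 97.5 CPM in P6D4 and 101, 96.7 and 95 CPM in 70Z/3, where the libraries overlapped and no difference was called (edgeR adjusted p = 0.814). Zbtb17 itself was at 44.4, 46.0 and 45.7 CPM in P6D4 and 41.3, 40.6 and 41.5 CPM in 70Z/3 (log2 fold change 0.14 ± 0.04 SE, edgeR adjusted p = 0.00426).

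Genes with a strong gene-end peak in one list alone included some with little or no RNA in the line of that label and more in the other. All 3 gene-end loci that were strong in the P6D4-labelled list with no 70Z/3 peak were of this kind, and so was Tmbim4. Stau2, an RNA-binding protein of RNA transport, had a pileup of 33 in the P6D4-labelled list, and its RNA was at 0.0361, 0.0949 and 0.0410 CPM in P6D4 and 88.4, 85.7 and 86.8 CPM in 70Z/3 (edgeR adjusted p = 1.23e-17). Rasal2, a Ras GTPase-activating protein, had a pileup of 38 and 1 count in all P6D4 libraries together, and was at 21.3, 21.5 and 22.0 CPM in 70Z/3 (edgeR adjusted p = 3.23e-15). Cand2, a regulator of cullin ubiquitin ligases, had a pileup of 47 and was at 1.30, 1.44 and 1.37 CPM in P6D4 and 48.1, 50.3 and 52.9 CPM in 70Z/3. Tmbim4, a Golgi protein linked to cell survival, had a pileup of 86 in the P6D4-labelled list and 13 in the 70Z/3-labelled list, and was at 0.0361, 0.0379 and 0.0410 CPM in P6D4 and 31.4, 30.6 and 31.6 CPM in 70Z/3. In each of the 4 genes the lines did not overlap, which the rule for naming genes by RNA required.

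The 70Z/3-labelled list had peaks without a counterpart at Snx18, Tshz3 and Ikzf2, whose RNA was near 0 in 70Z/3. Snx18, a sorting nexin that remodels membranes in endocytosis and autophagy, had a pileup of 329 with a fold of 200 and no P6D4-labelled peak, and was at 37.1, 40.1 and 41.4 CPM in P6D4 and had 1 count in all 70Z/3 libraries together (edgeR adjusted p = 8.29e-16). Tshz3, a zinc finger gene, had a peak of 25 within 1 kb and a second of 168, with a fold of 102, at 1495 bp, and was at 24.6, 26.9 and 26.4 CPM in P6D4 with 1 count in 70Z/3. Ikzf2, encoding the T cell factor Helios, had a pileup of 25 and was at 65.5, 81.3 and 84.2 CPM in P6D4 and 0.0426, 0.0414 and 0.0888 CPM in 70Z/3. Ccdc28b had a pileup of 56 and was at 15.7, 17.8 and 15.6 CPM in P6D4 and 1.81, 1.60 and 1.91 CPM in 70Z/3. Among the 17 tested genes whose gene-end peak was strong in the 70Z/3-labelled list and absent from the other, 5 were higher and 1 was lower in P6D4 by over 2-fold. That is a share of 35.3%, against 35.2% over all genes. The gene that was lower, Gm21814, had at most 1.13 CPM in any library, and the summit lay 337 bp from its 3′ end. The other 11 did not pass this test, among them Golga1, a golgin, at 24.3, 25.7 and 27.4 CPM in P6D4 and 29.8, 29.2 and 29.4 CPM in 70Z/3, and Ube3c, a ubiquitin ligase gene, averaging 107 and 89.3 CPM.

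Weaker peaks, which the rule did not use, were counted as well. Of 32 tested genes with a weaker gene-end peak in the P6D4-labelled list alone, 1 was more than 16-fold higher and 4 were more than 16-fold lower in P6D4. Of 237 in the 70Z/3-labelled list alone, 18 were higher and 11 lower. Over all 13750 genes 1025 were higher and 1406 lower by that much. Fold changes beyond the range of counts depend on the prior count of the fit, so levels are given above in their place.

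**Figure D5:**
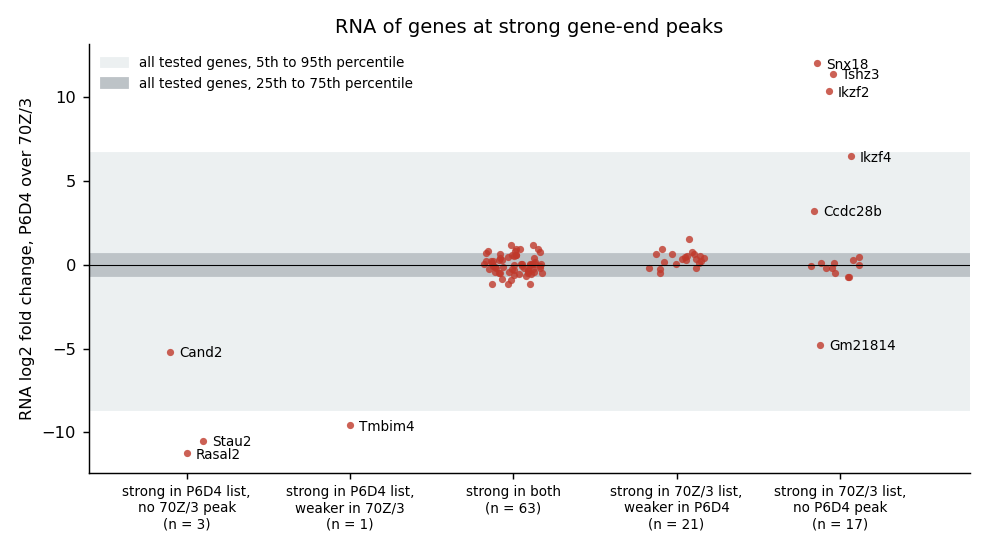
RNA log2 fold change of P6D4 over 70Z/3 for each of 105 tested genes at a strong gene-end peak, by the lists in which the peak was strong, weaker or absent, over bands that hold the 25th to 75th and the 5th to 95th percentile of all tested genes; values of genes with few counts in one line depend on the fit's prior count. Genes with peaks strong in both lists lie near 0. Of genes at peaks strong in the P6D4-labelled list alone, 3 had no 70Z/3-labelled peak and 1 had a weaker one. All of these are lower in P6D4, as are 43.2% of all tested genes.

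Genes whose peak was strong in the 70Z/3-labelled list and weaker in the other were counted apart: of 21 tested, 16 were higher and 4 lower in P6D4, against 43.3% and 43.2% over all genes, and 1 passed the 2-fold test. That gene was Fan1, a nuclease of DNA crosslink repair, with pileups of 20 in the P6D4-labelled list and 60 in the 70Z/3-labelled list and 11.1, 11.7 and 11.2 CPM in P6D4 and 3.74, 3.79 and 4.46 CPM in 70Z/3. Ino80, a chromatin remodeller, had pileups of 22 and 287 and averaged 94.0 CPM in P6D4 and 67.8 CPM in 70Z/3. Across the 63 tested genes with peaks strong in both lists, the log2 ratio of the pileups (P6D4-labelled over 70Z/3-labelled) and the RNA log2 fold change had a Spearman rho of -0.23 and a Pearson r of -0.22. These are over genes that share the same libraries, and such a weak relation is no finding.

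Members of the pathways looked at were counted at strong peaks. The list of autophagy and vesicle transport was drawn from groups known among Miz1 targets, so no excess is read from its count. For scale, 120 of all 21887 protein-coding genes, chromosome 15 included, were nearest to a strong gene-end peak. The pathway counts are wider, since they take any gene with an end within 1 kb of a summit. Of 49 listed genes of autophagy and vesicle transport, 3 had a strong peak within 1 kb, in both lists each time: Vamp4, Exoc2 and Ambra1, a Beclin 1 partner in autophagy, with pileups of 32 in the P6D4-labelled list and 143 in the 70Z/3-labelled list. Ambra1 was at 60.5, 60.8 and 62.5 CPM in P6D4 and 76.4, 77.1 and 78.0 CPM in 70Z/3. Over the 49 genes, all tested, 13 were higher and 28 lower in P6D4, against 43.3% and 43.2% over all genes, with a median log2 fold change of -0.20, against 0.01 over all genes. Uvrag and Atg10 had peaks of 11 and 8 in the 70Z/3-labelled list alone. None of 23 genes of the list of Miz1, its partners and its known targets had a peak within 1 kb of a gene end, and of them Rpl22 had the peak at an inner start. Of 80 cytosolic ribosomal protein genes, Rpl9 alone had a gene-end peak. Its RNA averaged 738 CPM in P6D4 and 682 CPM in 70Z/3. Rpl22 averaged 466 ± 6.66 CPM over P6D4 libraries and 438 ± 9.43 CPM over 70Z/3 libraries (SD, 3 of each; log2 fold change 0.09 ± 0.03 SE, edgeR adjusted p = 0.019), a call lost without P6D4 replicate 2, 70Z/3 replicate 2 or 70Z/3 replicate 3 (edgeR adjusted p = 0.0714, 0.102 and 0.112). Of 76 tested genes of this family 52 were higher and 15 lower, against 43.3% and 43.2% over all genes, with a median log2 fold change of 0.20, against 0.01. Of 77 mitochondrial ribosomal protein genes, Mrps15 had a strong gene-end peak in both lists, of 40 and 223. Mrpl45 had one in the 70Z/3-labelled list alone, of 37. Mrps23 had strong peaks of 46 in the P6D4-labelled list and 127 in the 70Z/3-labelled list. Their summits lay 7148 and 7151 bp from its gene end but inside a RefSeq promoter of that gene.

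Farther from genes, 38 strong peaks of the P6D4-labelled list and 181 of the 70Z/3-labelled list overlapped none of the other. With a fold of 20 or more, 28 and 59 of them were left, close to 27 and 59 genes. Of the 16 tested genes nearest such peaks in the P6D4-labelled list, 1 was more than 16-fold higher and 5 were more than 16-fold lower in P6D4, and of 34 in the 70Z/3-labelled list 7 were higher and 2 lower. At any fold 2 of 23 were higher and 7 lower in the P6D4-labelled list, and 11 of 74 were higher and 4 lower in the 70Z/3-labelled list, against 1025 higher and 1406 lower of all 13750 genes. Values near single peaks varied. Tbc1d8b, a Rab GTPase-activating protein gene 10730 bp from a P6D4-labelled peak of 44, had no count in P6D4 and averaged 20.7 CPM in 70Z/3. Usp11, a deubiquitinase gene 24678 bp from a P6D4-labelled peak of 39, averaged 153 CPM in P6D4 and 49 CPM in 70Z/3. Pdia4, near a peak of 37, was not called (edgeR adjusted p = 0.117), and Celf4 and Sh2d6, near peaks of 44 and 42, had too few counts to be tested. The nearest gene need not be the one a distant peak acts on. Of 313 genes nearest any farther strong peak, 159 (50.8%) had enough counts to be tested, against 87.5% of genes at strong gene-end peaks, and 60 were higher and 84 lower in P6D4, a share of 90.6%, against 86.5% over all genes.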

How the data were processed

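Strong peaks, gene lists, words and tests were chosen with earlier results of these data known. The authors deposited RNA-Seq values as raw counts for each Ensembl gene, made per the submitters' processing notes with TopHat2 2.0.10, Bowtie2 2.10, SAMtools, bedtools and HTSeq, on mm10 and GRCm38. Per the labels' protocols the kit keeps strand; how HTSeq treated strand is not stated, and reads of overlapping or antisense genes may be mixed. Miz1 peaks were called once per line with MACS 2.0.10.20120913 against the input of that line at a q-value threshold of 0.01, keeping 1 tag per position, per the file headers. The headers give 97% and 85% redundant tags (P6D4 and 70Z/3), which left 2.07 of 60.8 and 4.48 of 30.9 M tags. The pileup is the authors' signal at the summit, which 1 tag per position and strand limits to 542 and 540, and the fold is the authors' ratio over local background with a pseudocount of 1; local background was computed back from both. Samples of histone marks and inputs were not used here.

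Summits were set against both ends of 21887 RefSeq protein-coding genes (GRCm38.p6) and against RefSeq promoters; strand comes from the promoter table, which leaves some genes without one. Gene symbols were matched for 20604. RNA was tested with edgeR 4.0.16 (R 4.3.3; TMM, filterByExpr, quasi-likelihood test, Benjamini-Hochberg over 13750 genes, P6D4 over 70Z/3; 2-fold test by glmTreat), with DESeq2 1.42.0 as an alternative, and was tested on simulated data. Levels are CPM from these counts, on library sizes scaled by TMM. Named peaks were those of the highest pileup per list, in both lists, in 1 list and far from genes; named genes were those nearest them, the 10 largest differences in each direction among called genes at gene-end peaks with 10 CPM or more in the higher line and no overlap of libraries, and members of the pathway lists. Other genes named were chosen after their values were seen. Some genes are not reported here.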

Additional observations from a re-analysis of the deposited data

How the results depend on the processing

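Counts of called genes kept within 1.5-fold of the reported ones under other scalings, DESeq2, no filter on low counts, the replicate block and each library left out. The numbers in the titles do not pair the libraries: deviations of libraries with the same number correlated at -0.06 to 0.01, and no library correlated best with its own number. With the replicate block, 5867 genes were higher and 5847 lower in P6D4 over all genes, 49 and 41 of the genes at strong peaks were, and none of 31 single genes changed its call. Against a 2-fold difference, 2277 and 2561 of all genes and 7 and 8 of the genes at strong peaks were called. With the nearest gene at any distance, 109 were higher and 125 lower, and the median level in P6D4 was 41.2 CPM. The threshold on pileup set the share of gene-end peaks: at 30 or more it was 41.3% in the P6D4-labelled list and 32.2% in the 70Z/3-labelled list, at 20 or more 13.7% and 15.3%, and with a distance of 2 kb 32.5% in the 70Z/3-labelled list. The overlap with the other list was 69.7% and 42.0% when at least 50% of each peak had to be shared, 73.6% and 43.4% for summits within 200 bp, 73.9% and 62.9% at a pileup of 20 or more, and, added after seeing the data, 61.5% and 28.9% for strong peaks on both sides and 70.0% and 63.5% for a fold of 20 or more. Median length at a pileup of 20 or more was 592 and 645 bp, against 518 and 591 bp. The cause of these shifts was not tested. Of 31 single genes, no direction changed; apart from the 2-fold test, which 13 called genes did not pass, only Rpl22 and Rpl9 lost their call, Rpl9 without 70Z/3 replicate 3 (edgeR adjusted p = 0.0522) and Rpl22 also with DESeq2 (0.0814) and with DESeq2 size factors (0.0689). A window of 100 bases around the summit was not run, since no genome was used here. With 1 ChIP library per line, no peak value has a replicate error.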
